A study of Mus musculus with 2 samples.

Results

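The genes described here are 7 subunits of the GABA-A receptor, the alpha subunits Gabra2, Gabra3, Gabra4 and Gabra5, the beta subunits Gabrb1 and Gabrb2, and the delta subunit Gabrd. They were taken by exact gene symbol from the deposited transcript tables, and all 7 were found among the 55450 annotated genes of those tables. Total RNA had been sequenced from hippocampus of female B6CASTF1/J mice at 25 days of age, untreated as far as the labels tell. The source label reads layer of hippocampus tissue and does not say which layer. B6CASTF1/J is an F1 cross of C57BL/6J with the wild-derived CAST/EiJ strain, so both parental alleles contribute RNA, and they were not separated here. The labels give 1 group of 2 libraries, each from 300 ng of RNA with spike-in controls, with separate biosamples but the same donor entry. The spread between the libraries may therefore be partly technical. There is no second group, so no test between conditions exists and no p-values are given.

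GABA-A receptors are pentameric chloride channels opened by GABA, the main inhibitory transmitter of the adult brain. GABA binds where an alpha subunit meets a beta subunit, and the kind of alpha subunit sets much of the receptor's pharmacology and place on the cell. Receptors with a gamma subunit and alpha2 or alpha3 are found mainly at synapses, where they carry fast, phasic inhibition. Receptors with alpha5, and those that pair alpha4 with delta in place of a gamma subunit, lie largely outside synapses and carry tonic inhibition. In the hippocampus alpha5 is known above all from pyramidal neurons and the alpha4-delta pair from dentate granule cells. Other subunit genes that are not listed here were not analysed here.

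Depth was 34919989 and 41206890 expected counts in the 2 libraries, and the 7 genes together took 28632 and 33587 of them. Levels are TPM (a length-corrected level scaled to the same total in every library) from the authors' gene tables, as mean ± SD over the libraries with n = 2, unless each library is named. Markers of hippocampal principal neurons (Hpca, Slc17a7, Wfs1, Prox1 and Neurod6) summed to 2048 and 1860 TPM, and those of cerebellar granule cells (Gabra6, Cbln3, Barhl1 and Fat2) to 0.23 and 0.55. Thalamic markers (Prkcd, Rora, Ramp3, Tcf7l2, Tnnt1 and Lef1) summed to 45.6 and 33.1 TPM in replicates 1 and 2. Barhl1, at 0 in replicate 1 and 0.03 TPM in replicate 2, was the only one of the markers listed at 0 in either library. In tissue RNA, fewer cells of a type and less RNA per cell cannot be told apart, and this holds for every level given here.

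All 7 genes were expressed, across an 8- to 9-fold range that ran from Gabra5 at the top to Gabrd at the bottom. Gabra5 had 79.2 and 74.2 TPM in replicates 1 and 2, and Gabrd had 9.58 and 8.00. The ratio of Gabra5 to Gabrd was 8.26 in replicate 1 and 9.27 in replicate 2. Between them stood Gabrb2, Gabra2 and Gabrb1 at 50 to 58 TPM, then Gabra4 near 31 and Gabra3 near 14. Each neighbouring pair in this order was apart in both libraries except Gabra2 and Gabrb1, whose values overlapped. The gap between Gabrb2 and Gabra2 was narrow, since the lower Gabrb2 value was 54.0 and the higher Gabra2 value 53.9. Among nuclear protein-coding genes Gabra5 lay at percentile 94.8 and 94.6 of the level in replicates 1 and 2, and Gabrd at 62.8 and 60.8. Together the 7 genes made up 297 and 284 TPM.

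**Figure D1:**
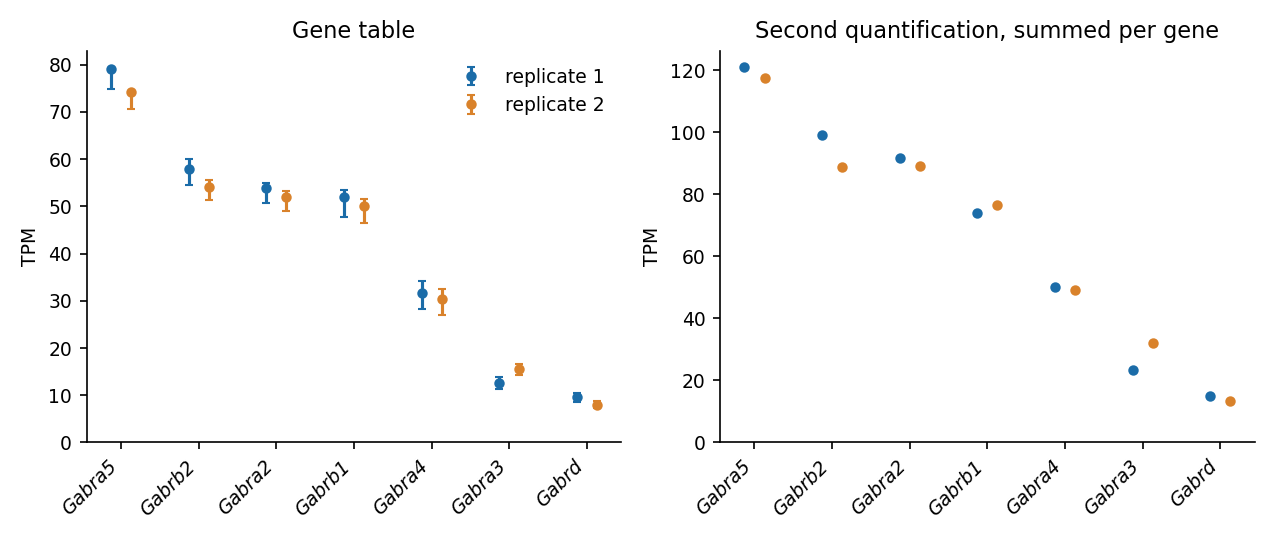
Level of each gene in TPM (linear axis) in replicate 1 (blue) and replicate 2 (orange), from the gene tables on the left, with the deposited posterior bounds as bars, and from the second deposited quantification on the right. Both panels run from Gabra5, at 79.2 and 74.2 TPM on the left, to Gabrd, at 9.58 and 8.00, and the bars need not be centred on the points because they come from the quantifier's posterior.

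A second deposited quantification, made from reads in the kallisto format, gave the same order by mean level. Its values were higher throughout, with Gabra5 at 121 and 117 TPM and Gabrd at 14.9 and 13.5, as its TPM was a median 1.61 and 1.65 times the main TPM over protein-coding genes. There Gabra2 and Gabrb1 were apart, at 91.8 and 89.3 against 73.9 and 76.7, while Gabrb2 and Gabra2 overlapped. Which neighbours were told apart among these 3 genes thus depended on the quantification, and the other 4 genes were apart from their neighbours in both.

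The 7 genes share an exon layout that the choice of genes did not use. In the main coding transcript of each, 3 consecutive coding exons measured 68, 221 and 83 bases, 372 bases when joined. The exons that follow them set the classes apart, at 144 and 153 bases in the 4 alpha genes, 138 and 153 in the 2 beta genes and 138 and 156 in Gabrd. Over the 372 bases, pairs of alpha genes were identical at 66.9% to 76.6% of positions and the beta pair at 77.4%. Pairs from different classes reached 50.8% to 60.8%, and Gabrd was nearest to the beta genes, with 60.8% against Gabrb2 and 58.9% against Gabrb1. Anywhere in the annotated transcripts, each read on its own strand, the longest run of identical bases between any 2 genes was 24, between Gabra3 and Gabra5. The opposite-strand overlap of Gabra4 and Gabrb1, described below, was not part of this comparison. The third of these exons codes for the Cys-loop, the disulfide-closed loop that names this receptor superfamily. It is printed here from the GENCODE M21 transcripts (mm10, 5′ to 3′ on each gene's strand) because it shows how close the measured genes are to each other, and capitals mark the 32 of 83 bases that are identical in all 7.
Gabra2, chr5:71012701-71012783, minus strand: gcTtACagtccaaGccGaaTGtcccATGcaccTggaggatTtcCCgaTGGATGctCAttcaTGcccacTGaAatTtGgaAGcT
Gabra3, chrX:72476226-72476308, minus strand: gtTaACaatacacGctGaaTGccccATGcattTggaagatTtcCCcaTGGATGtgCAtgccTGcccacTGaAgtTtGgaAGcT
Gabra4, chr5:71640828-71640910, minus strand: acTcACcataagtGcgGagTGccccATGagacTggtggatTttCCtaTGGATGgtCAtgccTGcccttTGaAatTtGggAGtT
Gabra5, chr7:57452945-57453027, minus strand: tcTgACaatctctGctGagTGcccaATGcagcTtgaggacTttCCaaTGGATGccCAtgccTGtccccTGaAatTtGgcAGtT
Gabrb1, chr5:72029827-72029909, plus strand: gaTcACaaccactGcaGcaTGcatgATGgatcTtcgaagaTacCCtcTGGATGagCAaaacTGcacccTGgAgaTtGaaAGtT
Gabrb2, chr11:42529412-42529494, plus strand: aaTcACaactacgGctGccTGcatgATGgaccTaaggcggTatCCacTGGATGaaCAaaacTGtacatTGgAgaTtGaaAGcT
Gabrd, chr4:155387858-155387940, minus strand: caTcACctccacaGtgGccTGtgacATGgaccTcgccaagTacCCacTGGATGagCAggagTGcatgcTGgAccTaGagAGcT
The longest unbroken run of shared letters, TGGATG, lies in the later part of the exon.

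Gabra5, whose product makes the tonic, extrasynaptic receptors of pyramidal neurons, is ENSMUSG00000055078.7 at chr7:57407672-57510059 on the minus strand. It drew 4803 and 5620 expected counts and 79.2 and 74.2 TPM in replicates 1 and 2, a mean of 76.7 ± 3.51. Of the TPM summed over the 4 alpha genes it held 44.6% and 43.1%, a mean of 43.9% ± 1.08. Gabra2 held 30.3% ± 0.147, Gabra4 17.7% ± 0.116 and Gabra3 8.06% ± 1.35. Gabra5 therefore led the alpha genes in both libraries, with Gabra2 next. In expected counts, which are not corrected for length, the top 2 places were exchanged, with 34.1% for Gabra5 and 39.6% for Gabra2.

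The 3 annotated Gabra5 transcripts all carry a single 1389-base coding sequence and differ before and after it. Gabra5-201 held 59.2% and 54.6% of the gene's TPM in replicates 1 and 2, Gabra5-202 held 34.7% and 39.9%, and Gabra5-203 held 6.15% and 5.52%. The second quantification gave the opposite order, with Gabra5-202 at 88.9 and 90.6 TPM and Gabra5-201 at 32.0 and 26.5. Gabra5-201 and Gabra5-202 share 8 exons, and which of their starts and ends is used more was not settled by these tables. The coding sequence is the same whichever it is. At its 3′ end Gabra5 overlaps the antisense gene Gm9962 by 2270 bases. Gm9962 had 0.73 and 0.72 TPM. The labels describe stranded libraries, but whether strand was used in quantification is not given in the sources used here.

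Gabra2 encodes the alpha2 subunit, found at synapses and enriched on the axon initial segment of pyramidal neurons. The gene, ENSMUSG00000000560.9 at chr5:70957597-71095849 on the minus strand, had 5604 and 6507 expected counts and 53.9 and 52.0 TPM. Its mean level was 53.0 ± 1.37, and the values of the libraries lay close together. The transcript that codes for the full subunit gave under 50% of this level. Gabra2-203, with 5852 bases and a 1353-base coding sequence, was at 24.9 and 21.7 TPM, or 46.2% and 41.8% of the gene. Gabra2-204, which GENCODE M21 classes as a target of nonsense-mediated decay (the degradation of RNA with a premature stop), was at 21.5 and 21.9 TPM, or 39.8% and 42.1%. Gabra2-203 was the higher of the pair in replicate 1 and the lower in replicate 2, by less than 1 TPM there. The deposited bounds were 22.9 to 25.6 TPM for Gabra2-203 and 18.5 to 22.7 for Gabra2-204 in replicate 1, and 20.1 to 22.5 and 19.2 to 23.3 in replicate 2, so they overlapped only in replicate 2.

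The second quantification also had both transcripts at high levels, with Gabra2-204 the higher in both libraries at 40.2 and 40.5 TPM against 33.1 and 30.0. With Gabra2-201, also classed as a decay target, the decay class held 41.5% and 45.4% of Gabra2 TPM. By expected counts, Gabra2-203 led with 61.5% and 57.7%, since it is the longer transcript. The coding sequence of Gabra2-204 is cut to 261 bases by a shorter exon 5 of 160 bases, where Gabra2-203 has 221. Exon 5 of Gabra2-203 (chr5:71014416-71014636, minus strand, 5′ to 3′) is shown because these transcripts differ in it, and capitals mark the 61 bases, chr5:71014576-71014636, that Gabra2-204 lacks.
Gabra2 exon 5: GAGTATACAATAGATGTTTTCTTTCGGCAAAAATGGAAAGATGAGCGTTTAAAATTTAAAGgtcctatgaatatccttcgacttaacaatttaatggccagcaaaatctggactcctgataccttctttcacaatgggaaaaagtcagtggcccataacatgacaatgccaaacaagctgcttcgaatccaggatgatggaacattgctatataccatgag
The absent stretch leaves a remainder of 1 base on division by 3, so the reading frame shifts after it. The 2 transcripts also differ at their ends, Gabra2-204 being 40 bases shorter at the 5′ end and 1884 bases shorter at the 3′ end, and they share 7 exons. Reads across the exon junction were not available as values here, so the assignment of reads to either transcript may rest on any of these differences. As background, the C57BL/6J allele of Gabra2 is known for an intronic deletion beside a splice acceptor that lowers Gabra2 RNA and protein in brain, and its part in these values was not tested.

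Gabra4 encodes the alpha4 subunit, the usual partner of delta in dentate granule cells and thalamic relay neurons. It is ENSMUSG00000029211.11 at chr5:71569749-71658308 on the minus strand, with 2517 and 2932 expected counts. Its level was 31.6 TPM in replicate 1 and 30.4 in replicate 2, a mean of 31.0 ± 0.856. That is 3.30 and 3.80 times the level of Gabrd in the same libraries. The leading transcript, Gabra4-201, with a 1656-base coding sequence, held 74.2% and 73.7% of the gene's TPM, a mean of 73.9% ± 0.318. Gabra4-202, classed as a decay target, held 11.2% and 6.73%, and 20.9% and 19.5% in the second quantification. The 440-base Gabra4-203, whose 282-base coding sequence covers only a small part of the subunit, held 8.80% and 15.2% on 22.8 and 47.4 expected counts. In the second quantification Gabra4-203 was listed at 0 in replicate 1 and at 2.78 TPM in replicate 2. A share resting on so few counts is poorly fixed, and its deposited bounds ran from 0.652 to 5.55 TPM in replicate 1.

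Gabra3 encodes the alpha3 subunit, abundant before birth and in later life known from monoaminergic and thalamic reticular neurons. The gene is ENSMUSG00000031343.13 at chrX:72432681-72656848 on the minus strand, and it was the lowest of the 4 alpha genes. It had 1010 and 1594 expected counts and 12.6 and 15.5 TPM, a mean of 14.0 ± 2.06. Gabra5 was 6.29 times as high in replicate 1 and 4.79 times in replicate 2. Gabra3-201, with a 1476-base coding sequence, held 92.6% and 95.5% of Gabra3 TPM. In the second quantification its share was 70.6% and 62.3%, with the rest on Gabra3-203, a 589-base transcript without a coding sequence, and on Gabra3-202, which the main tables list at 0 in both libraries. The microRNA genes Mir767 and Mir105 lie within Gabra3 on its strand and were listed at 0 in both libraries.

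The beta subunits complete the GABA binding site and link the receptor to the machinery that sends it to the surface. Gabrb2, ENSMUSG00000007653.12 at chr11:42419757-42629028 on the plus strand, had 5116 and 5981 expected counts and 57.8 and 54.0 TPM, a mean of 55.9 ± 2.68. Gabrb1, ENSMUSG00000029212.11 at chr5:71658113-72149037 on the plus strand, had 9141 and 10491 expected counts and 52.1 and 50.1 TPM, a mean of 51.1 ± 1.38. By gene level, then, Gabrb2 was above Gabrb1 in both libraries but only by 1.11 and 1.08 times.

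The transcripts behind these close levels were unlike. Gabrb2-201, with a 1422-base coding sequence, held 91.5% and 92.4% of Gabrb2 TPM. Gabrb1-201, also with a 1422-base coding sequence, held 51.0% and 48.4% of Gabrb1 TPM, and the remaining 49.0% and 51.6% fell to Gabrb1-202, a 799-base transcript whose coding sequence is annotated as incomplete. The leading Gabrb1 transcript was therefore not the same one in both libraries. By expected counts Gabrb1-201 took 95.3% and 94.8%, and Gabrb1-202 rested on 430 and 544 counts. Gabrb1-201 is 13737 bases long, of which 10.4% is coding and 12573 bases are its last exon, so a count weighs far less in its TPM than in that of Gabrb1-202. The second quantification also split Gabrb1, with 41.0 and 39.2 TPM for Gabrb1-201 against 32.9 and 37.5 for Gabrb1-202, and Gabrb1-201 led in both libraries there. Over Gabrb2-201 and Gabrb2-205, the coding transcripts that carry an APPRIS tag (the annotation's mark of a principal or alternative protein isoform), Gabrb2 had 53.2 and 49.9 TPM. Gabrb1-201, the tagged transcript of Gabrb1, had 26.6 and 24.3. On that measure, chosen after the values were seen, Gabrb2 was 2.01 and 2.06 times as high as Gabrb1.

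Gabrb2-205 carries an added exon of 114 bases, 38 codons, that lengthens the large intracellular loop of the subunit, and it is described after its values were seen. The exon (chr11:42602115-42602228, plus strand, 5′ to 3′) is the whole difference between the short and the long form within that loop and is given in lower case throughout.
Gabrb2-205 added exon: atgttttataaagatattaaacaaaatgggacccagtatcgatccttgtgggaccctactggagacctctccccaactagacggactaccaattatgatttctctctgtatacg
This long form was almost absent from the main tables, with 0.34 TPM in replicate 1, resting on 11.6 expected counts, and 0 TPM in replicate 2. The second quantification put it at 2.09 and 1.70 TPM, against 82.8 and 81.2 for Gabrb2-201. By the TPM of these annotated transcripts, the short form held most of the coding Gabrb2 RNA under both quantifications. Gabrb2-205 is annotated with 0 bases before and 3 after its coding sequence, against 427 and 2140 in Gabrb2-201. The assignment of reads may rest on these ends too, and reads over the added exon were not counted separately.

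Gabra4 and Gabrb1 lie head to head on chromosome 5 and overlap by 196 bases. Gabrb1-202 starts 195 bases inside Gabra4-201 on the opposite strand and 41819 bases upstream of the start of Gabrb1-201. Its first exon, of 28 bases, and 18 bases of its second exon lie within the first exon of Gabra4-201. Only 101 of its 799 bases are not in Gabrb1-201. Since use of strand in quantification is not stated, reads from either gene in the overlap cannot be told apart, and this touches the shares of Gabrb1-202. The Gabra4 promoter window, 250 bases before to 50 after the start in RefSeq (GRCm38.p6, chr5:71658259-71658558, minus strand, 5′ to 3′), is printed because the start of one gene falls in an exon of the other there. Capitals mark the first 18 bases of Gabra4-201, chr5:71658291-71658308, which on the other strand belong to the second exon of Gabrb1-202.
Gabra4 promoter: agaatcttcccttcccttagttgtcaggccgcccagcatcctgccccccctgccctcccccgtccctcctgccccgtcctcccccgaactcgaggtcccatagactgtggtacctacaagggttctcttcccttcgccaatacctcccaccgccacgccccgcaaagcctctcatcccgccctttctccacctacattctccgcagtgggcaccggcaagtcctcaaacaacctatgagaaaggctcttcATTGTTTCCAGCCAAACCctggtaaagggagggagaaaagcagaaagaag
Of the 300 bases, 58.7% are G or C, with 12 CG pairs, against medians of 52.7% and 7 over all 32851 RefSeq promoter windows. The Gabrb1 window at the Gabrb1-202 end of the gene had 66.0% and 25 CG pairs, and the one at the Gabrb1-201 start 50.3% and 9. Among the other members with a window, Gabra2 reached 70.0% with 25 CG pairs, while both Gabra3 windows had none. Windows were found for 6 of the 7 genes, all but Gabrd.

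Gabrd encodes the delta subunit, the defining part of receptors that carry tonic inhibition in dentate granule cells. It is ENSMUSG00000029054.8 at chr4:155384980-155398112 on the minus strand and was the lowest of the 7 genes, with 441 and 462 expected counts. Its level was 9.58 TPM in replicate 1 and 8.00 in replicate 2, a mean of 8.79 ± 1.12. Gabrd-201, with a 1347-base coding sequence, held 83.0% and 87.3% of it. Gabrd-203, which has no coding sequence, held 15.2% and 12.8%. A 1357-base exon of Gabrd-203 runs across 2 introns of Gabrd-201. The level of Gabrd-203, 1.45 and 1.02 TPM, rested on 91.2 and 79.9 expected counts. Reads within those introns were not counted separately. In the second quantification Gabrd-201 was at 11.4 and 10.02 TPM and Gabrd-203 at 2.77 and 2.49.

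**Figure D2:**
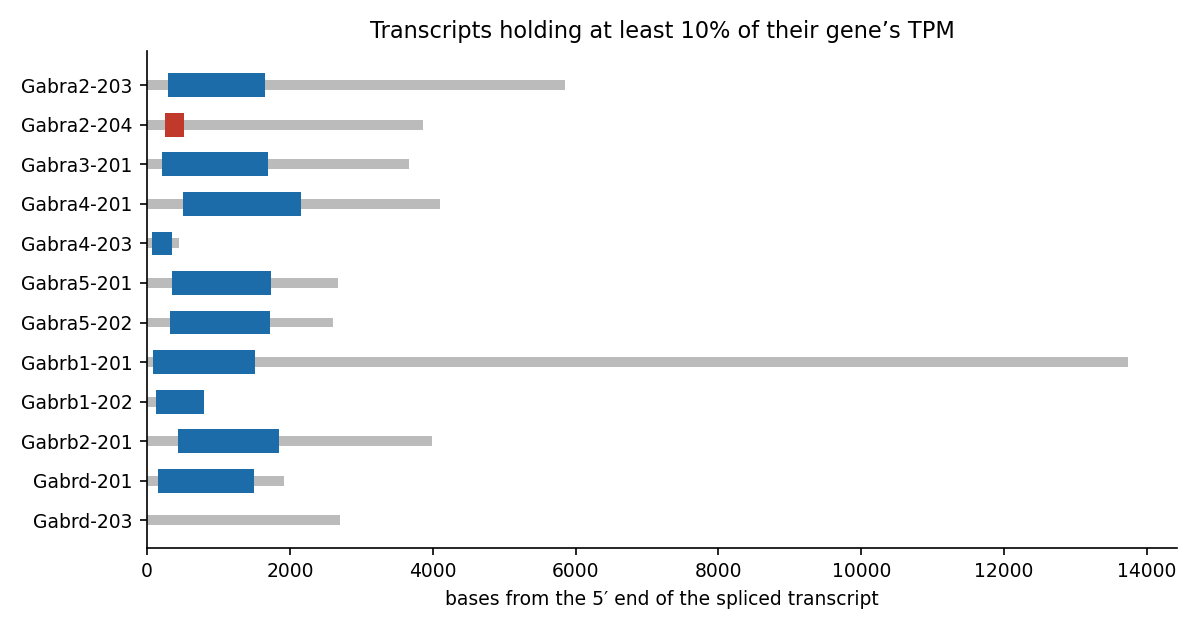
Spliced maps, to scale in bases from the 5′ end, of the transcripts that held at least 10% of their gene's TPM, with coding sequence in blue, coding sequence of a decay-class transcript in red and the rest in grey. Coding sequence is 10.4% of Gabrb1-201 and 70.1% of Gabrd-201, and that of Gabra2-204 is 261 bases against 1353 in Gabra2-203.

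Across the 7 genes, the share of coding, APPRIS-tagged transcripts ranged from 100% of the TPM in Gabra5 to under 50% of it in Gabra2. In 6 of the 7 a single transcript made up over 50% of gene TPM, as the mean of the libraries, and Gabra2 was the exception. In Gabrb1 the leading share was 50.3% ± 1.80, which lies within its SD of that limit. With a limit of 75% the count was 3, namely Gabra3, Gabrb2 and Gabrd.

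**Figure D3:**
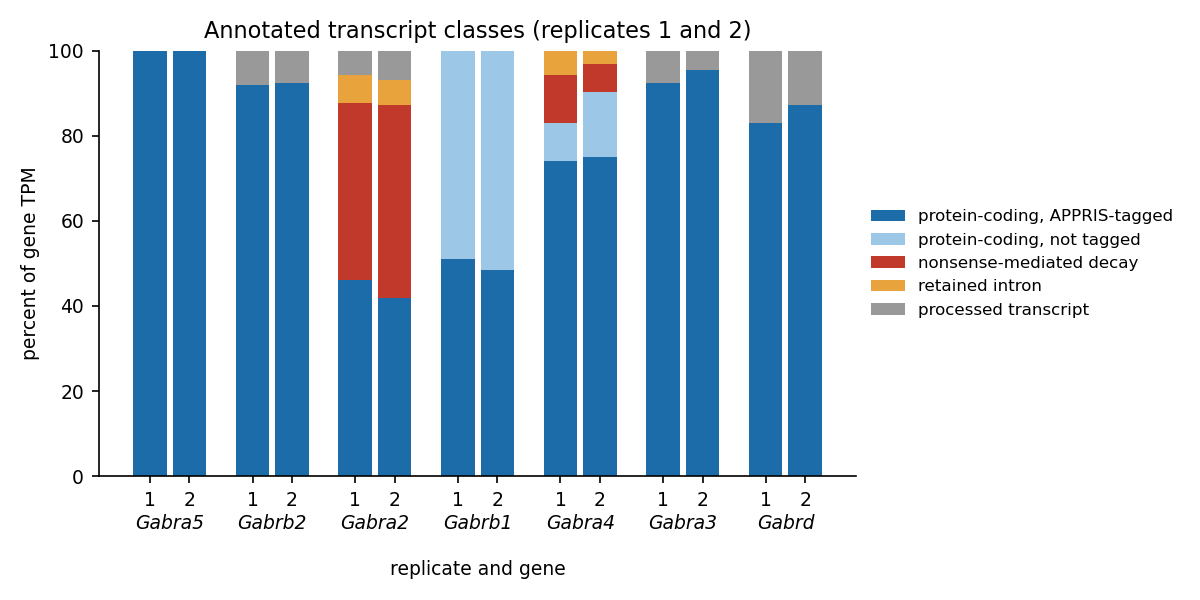
Percent of each gene's TPM held by annotated transcript classes, with replicate 1 and replicate 2 as neighbouring bars. The decay class makes up 41.5% and 45.4% of Gabra2, and coding RNA without an APPRIS tag makes up 49.0% and 51.6% of Gabrb1.

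Counting tagged transcripts alone changed the order of the genes. Gabra5 stayed first at 79.2 and 74.2 TPM, followed by Gabrb2. All 3 annotated Gabra5 transcripts carry the tag, so neither its place nor its share of the alpha genes could fall on this measure. Gabrb1 was at 26.6 and 24.3, Gabra2 at 24.9 and 21.7 and Gabra4 at 23.4 and 22.8, so that each of these overlapped its neighbour. Gabra3, at 11.7 and 14.8, and Gabrd, at 7.95 and 6.98, kept the last places. On this measure the Gabra5 share of the alpha genes was 56.2% ± 0.942 and that of Gabra2 17.1% ± 1.14. In the second quantification the tagged transcripts of Gabra4, at 36.3 and 35.3 TPM, stood above that of Gabra2, at 33.1 and 30.0.

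**Figure D4:**
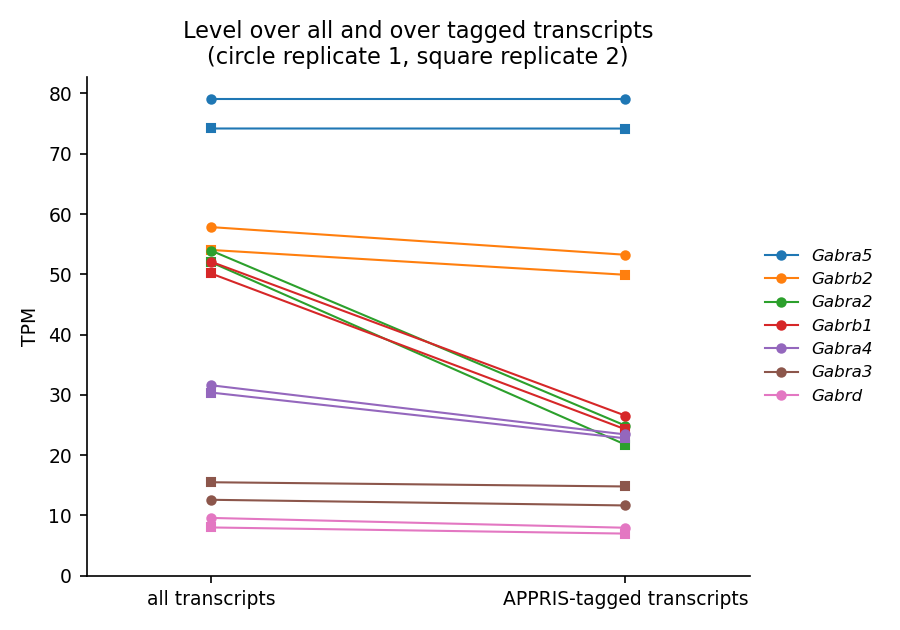
Level in TPM (linear axis) over all transcripts and over APPRIS-tagged transcripts, joined by a line for each gene, with circles for replicate 1 and squares for replicate 2. Gabra2 and Gabrb1 lie at 50 to 54 TPM over all transcripts and at 21 to 27 over tagged ones, beside Gabra4. Gabra5, whose transcripts are all tagged, stays at 74 to 79.

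The libraries were then compared with each other, as the ratio of replicate 2 to replicate 1 in TPM with an exact 95% counting interval. Of the 7 genes, 0 differed by 2-fold or more, against 0.826% of the 12957 genes with at least 200 expected counts. At 1.5-fold the count was also 0, against 3.88%, and with 7 genes a count of 0 is near either share. Their median log2 ratio was -0.06, beside -0.07 over all those genes. As deposited, 6 of the 7 were lower in replicate 2, where 64.9% of all genes were. Under TMM or DESeq2 scaling of the counts 2 were lower and 5 higher. The median log2 ratio of all those genes was positive under these scalings too, at 0.0443 and 0.0454.

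In deposited TPM, Gabra3 and Gabrd lay farthest from the median ratio. Gabra3 was higher in replicate 2, at a ratio of 1.23 (1.14 to 1.33), which was at percentile 97.2 of all genes. The 6 settings compared were the deposited TPM, protein-coding, spike-in, TMM and DESeq2 scaling, and the second quantification. The Gabra3 ratio was above 1 in all of them, from 1.13 to 1.38. Its log2 distance above the median of all genes was 0.37 in deposited, protein-coding and spike-in TPM. It was 0.40 under TMM and DESeq2 and 0.51 in the second quantification. A library factor cancels in this distance, so settings that differ only in that factor give the same value by construction. Gabrd was lower, at 0.835 (0.731 to 0.954), percentile 18.3, and from 0.770 to 0.904 across the 6 settings. The other 5 genes had ratios of 0.934 to 0.964 in deposited TPM and were above 1 in some settings and below it in others. Among them Gabrb2 lay farther below the median than Gabrd in the second quantification, at a log2 distance of -0.115 against -0.103. Scaling to the spike-ins moved the median of all genes from -0.07 to -0.19.

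**Figure D5:**
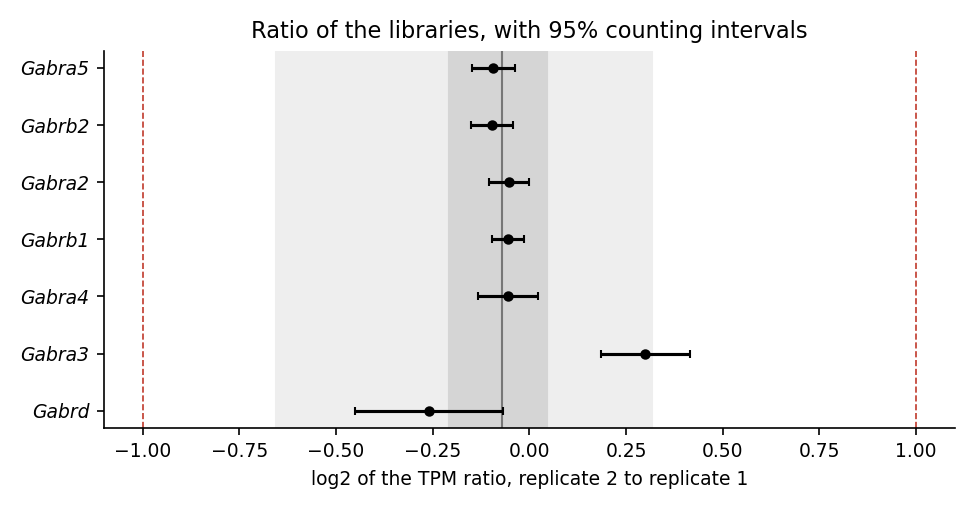
log2 of the TPM ratio of replicate 2 to replicate 1 with 95% counting intervals as bars, over the middle 50% of all genes (dark band), their central 95% (light band, -0.66 to 0.32), their median (grey line) and the 2-fold limits (dashed). Gabra3, at 0.30, lies near the upper edge of the light band, Gabrd is at -0.26, and the other 5 lie within the dark band.

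Markers of several cell types also differed between the libraries. All 4 thalamic markers with enough counts were lower in replicate 2, with Prkcd at 17.5 and 11.1 TPM and Tcf7l2 at 7.95 and 4.93, both past 1.5-fold. The 5 principal neuron markers were also lower, as were 64.9% of all genes, and of the interneuron markers Gad1, Gad2, Slc32a1, Sst, Pvalb and Vip 5 of 6 were higher, with sums of 398 and 425 TPM. Astrocyte markers (Aqp4, Gfap and Aldh1l1) summed to 193 and 200 TPM. The part of these markers in the Gabrd and Gabra3 ratios was not tested.

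The other subunit genes on the list were all below Gabrd, the lowest of the 7. Of 9 such genes, Gabrg1 had 5.60 and 6.63 TPM and Gabrg3 6.16 and 5.71, both gamma subunits. Gabrq, the theta subunit gene, came next at 0.10 and 0.32. Gabre, Gabrp and Gabrr3, for the epsilon, pi and rho3 subunits, were under 0.1 TPM in both libraries, and Gabrp was listed at 0. Gabra6, the cerebellar granule cell alpha subunit, was at 0.05 and 0.17. Gabrg1 was higher in replicate 2 and Gabrg3 lower, and the other 7 had too few counts for a ratio. The second quantification put Gabre higher, at 0.719 and 0.478 TPM, against 0.241 and 0.509 for Gabrq. The order of these low genes thus depended on the quantification.

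The 19 genes for assembly, anchoring and trafficking of the receptor were all measured. Gabarapl1, of a family that binds the gamma subunit and takes part in autophagy, led at 270 and 280 TPM. Ank3, whose product ankyrin-G holds receptors at the cell surface, was at 212 and 164. Of the 19, 6 were higher and 13 lower in replicate 2 and 0 passed 1.5-fold, with a median log2 ratio of -0.08. This is close to all genes, of which 64.9% were lower and 3.88% passed 1.5-fold, with a median of -0.07. Gephyrin itself, from Gphn, the scaffold of synaptic receptors, had 31.6 and 29.9 TPM, and Rdx, for radixin, which anchors alpha5 receptors outside synapses, had 22.4 and 21.4. These last genes were picked out after their values were seen, for their roles. The directions above are those of deposited TPM. In the second quantification Gphn, Rdx, Trak1 and Plcl1 were higher in replicate 2 instead of lower, and the rest of the 19 kept their direction.

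Of the 8 genes for GABA synthesis, vesicle loading, uptake and breakdown, Gad1, for a GABA-synthesising enzyme, was the highest at 136 and 127 TPM, and Abat, for GABA transaminase, had 58.1 and 59.2. In replicate 2, 4 were higher and 4 lower, 0 passed 1.5-fold, and the median log2 ratio was 0.00. With 3.88% of all genes past 1.5-fold, a count of 0 among 8 genes is near that share.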

How the data were processed

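Ribosomal-RNA-reduced total RNA libraries were quantified on mm10 with GENCODE M21, per the deposited notes, and no aligner is named in the sources used here. The authors deposited expected counts and TPM per gene and transcript in the RSEM format, made from transcriptome alignments, with a percent of gene TPM per transcript. Posterior bounds on TPM were kept as a score from the deposited tables. A second deposited transcript table, in the kallisto format and made from reads, holds estimated counts and TPM and was summed per gene. Depth was 34919989 and 41206890 expected counts; intervals cover counting error only.

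Members were matched by exact symbol. The members and lists were chosen with earlier results of these data known. A ratio of the libraries was taken in deposited TPM where a gene's expected counts summed to 200 or more, and its 95% interval is the exact Clopper-Pearson interval of the pair of counts, carried over to TPM. The libraries differed beyond sampling noise, with a chi-square of 20.1 per gene over 12957 genes, and were counted as 2 samples. All 7 members were named, with transcripts holding at least 10% of gene TPM, and per list the 3 highest genes, any at least 1.5-fold different and any under 0.1 TPM in both libraries, and exceptions are marked in the text. Some genes that this rule names are left out of the text. Exons and classes came from GENCODE M21, promoters from RefSeq. Counts were rounded for edgeR 4.0.16 (TMM) and DESeq2 1.42.0 (size factors) in R 4.3.3. Tables were handled in Python 3.11.15 with numpy 2.4.6 and pandas 2.3.3, intervals with scipy 1.17.1 and plots with matplotlib 3.10.9. The ratio rule was run on simulated counts with an assumed spread between libraries. That run used no TPM, so it does not show how the rule performs on these libraries.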

Additional observations from a re-analysis of the deposited data

How the results depend on the processing

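The median log2 ratio of the 7 genes, -0.06 as deposited, changed sign under TMM (0.0067) and DESeq2 size factors (0.0078). The median of all genes changed sign in the same settings, from -0.07 to 0.0443 and 0.0454. The median of the 7 was above it as deposited and below it under those scalings. It stayed negative under the second quantification, protein-coding and spike-in scaling, pseudocounts of 1 and 0.1, no count minimum and tagged transcripts. The Gabra5 share of alpha TPM, 43.9%, was 41.5% in the second quantification and 34.1% in expected counts, which are not divided by length. Over APPRIS-tagged transcripts, an alternative chosen after seeing the data, it was 56.2%, and it could not fall there because all Gabra5 transcripts are tagged. With each library alone the share was 43.1% to 44.6%. The count of genes with a leading transcript over 50% was 6, was 3 at the stricter limit of 75%, and was 7 by expected counts, where Gabra2 was no longer the exception. It was 6 with either library alone (range 6 to 6). No gene passed 2-fold under any alternative run, while the share of all genes that did ranged from 0.494% to 9.91%. Levels and leading shares of single genes with 1 library left out lie within the SD by construction and carry no information on stability. No paired analysis was possible because there is a single group. With n = 2 an SD is itself poorly known, and depth limits most the transcripts under 50 expected counts.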
